A study of Mus musculus with 88 samples.

Results

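The 26S proteasome was followed through 36 of its proteins, of 5899 protein groups kept from the trypsin runs. The members were the groups whose first gene name begins with Psma, Psmb, Psmc, Psmd, Psmf or Psmg. Psmb5, Psmb6, Psmb7, Psmb8, Psmb9 and Psmb10, the catalytic subunits and their immunoproteasome counterparts, were left out. By class these were 11 core subunits (7 alpha and 4 beta), 9 base subunits, 8 lid subunits and 8 assembly factors or inhibitors. The 11 core, 9 base and 8 lid subunits are called the 28 structural subunits below.

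The cells were dendritic cells grown with GM-CSF from bone marrow of female C57BL/6J mice; the labels give no age. They received lipopolysaccharide (LPS, a component of the bacterial outer membrane, from E. coli K12) at 100 ng/ml, or a mock stimulus. All cells had been grown in M-labelled amino acids and were pooled and moved to H-labelled amino acids at 0 h, so M marks protein made before the switch and H protein made after it. An unlabelled mix of the same kind of cells (L) was the reference in every run. The 84 M and H samples came from 42 runs: 2 replicates at 0 h, and 2 under each treatment at 10 times from 0.5 to 24 h (hourly from 1 to 6 h, then 9, 12 and 24 h). Whether the replicates came from separate cultures is not stated, so the p-values reflect variation between these runs that may be technical only. The design text describes harvests up to 12 h and gives no handling for the 24 h samples that the labels list. Unlabelled baseline samples digested with AspN or LysN made up the rest of the series.

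The proteasome degrades proteins tagged with ubiquitin. Its core particle is a barrel of alpha rings, which form the gate, around beta rings, which hold the proteolytic sites. The regulatory particle on top has a base, with a ring of ATPases that unfold the substrate, and a lid, which removes the ubiquitin chain. Chaperones that are absent from the finished particle help to assemble both. In dendritic cells the proteasome also makes the peptides presented on MHC class I, and catalytic subunits are exchanged for immunoproteasome subunits during inflammation.

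Some features of the runs bear on all values. H was read before any H label had been given: at 0 h the H share, H/(H+M), had a median over all proteins of 14.2% and 13.1% in the 2 runs, and of 9.7% and 9.5% over the structural subunits. That level is background. The LPS 12 h run of replicate 2 stood apart in its scaling factor (log2 0.69, the highest of the 42), and results over 6 to 12 h were repeated without it. Of the markers of other cells, the granulocyte proteins Ngp, Ltf and Mpo and the macrophage proteins Csf1r, Mrc1 and Apoe had a ratio in all 42 runs, as did the platelet protein Pf4. Of the 8 dendritic markers 6 had one, Itgax, Cd74, H2-Ab1, H2-Aa, Itgam and Ptprc, whereas Cd86 had one in 2 runs and Fcgr3 in 3. No lymphocyte marker of 6 was listed. The summed total level of the 3 granulocyte markers was 7.54 and 7.58 in mock cells at 24 h and 2.03 in both LPS runs. The other granulocyte marker tested was not called (log2 0.25). That of the 3 macrophage markers was 5.33 and 6.30 in mock cells and 2.83 and 3.03 after LPS, and that of the 6 dendritic markers 6.22 and 7.10 against 4.74 and 5.55. The level of Pf4 was 1.94 and 2.03 in mock cells and 1.36 and 1.55 after LPS. These lists moved with the treatment, and their part in the results on the proteasome was not tested. In lysates of whole cultures, fewer cells of a type and less protein per cell cannot be told apart.

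Ratios were well covered for most members. The median number of H/M peptide pairs per run ranged from 2 for Psmg2, a core assembly chaperone read from 1 unique peptide, to 81 for Psma6, and 34 of 36 members had a ratio in all 42 runs. Psmg2 had one in 27 and Psmg3 in 41. Psmd4 rested on 2 and Psmc3 on 4 peptides unique to the group, so paralogues or isoforms in other groups could share their signal. The Psma5 group also lists Gm8394.

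At baseline the core subunits were the most abundant class in each of 3 digests. The trypsin values are from the M channel of the 2 runs at 0 h. The AspN and LysN values are from separate unlabelled baseline samples, 2 per enzyme, whose labels give no time. Levels are iBAQ values (summed intensity over the number of theoretical peptides), given as a percent of the core median of the same sample. With trypsin the base median stood at 50.1% and 36.2% of the core in the 2 samples, the lid at 19.9% and 17.0%, and the assembly factors at 12.8% and 5.44%. The order was the same with AspN, where base, lid and assembly factors had medians of 45.4% and 51.9%, 31.2% and 24.0%, and 10.7% and 8.29%. With LysN they were 32.3% and 34.5%, 18.6% and 21.4%, and 6.69% and 2.10%.

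Single subunits changed rank with the enzyme. In the trypsin samples the highest core subunit was Psma7, an alpha subunit, at log2 0.95 ± 0.38 over the core median (SD, n = 2), and the lowest was Psmb3, a beta subunit, at -1.37 ± 0.04. Psmb2, a beta subunit, stood at -0.21 ± 0.29 with trypsin and 0.11 ± 0.33 with AspN but at -5.40 ± 1.00 with LysN. Among base subunits Psmc2, an ATPase, was highest (-0.68 ± 0.20) and Psmd1, a large scaffold subunit, lowest (-2.54 ± 0.36). In the lid these were Psmd11, a scaffold subunit (-0.87 ± 0.22), and Psmd3 (-3.43 ± 0.71). Of the assembly factors Psmd9, a base chaperone, reached -0.52 ± 0.34 and Psmg2 only -7.32 ± 2.56. A level that moves this far between enzymes describes the digest as well as the protein. AspN listed 33 and LysN 34 of the 36 members.

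**Figure D1:**
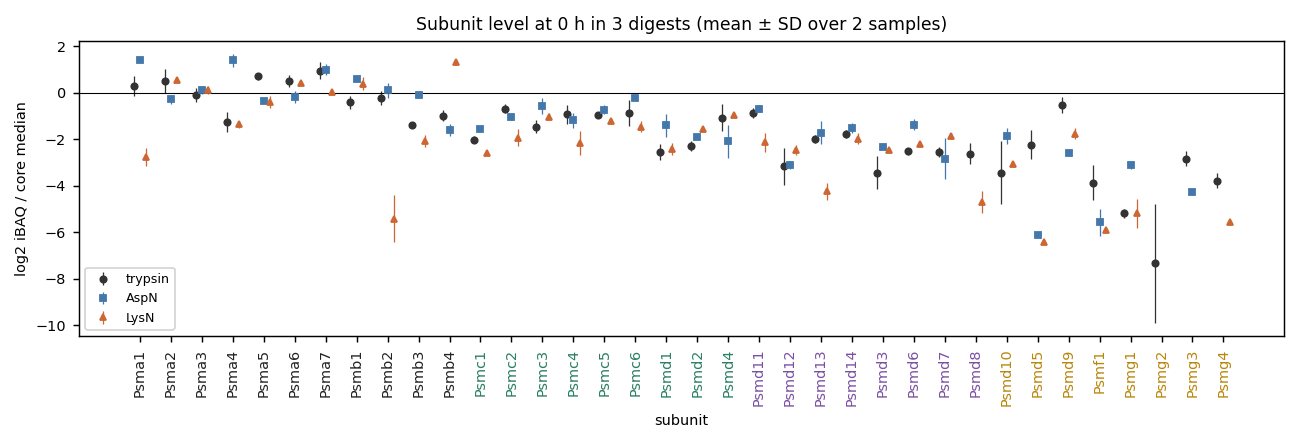
Level of each subunit as log2 of iBAQ over the core median of the same sample (vertical axis), by subunit (horizontal axis). Trypsin is the M channel at 0 h, and AspN and LysN are unlabelled baseline samples with no time given. Points are means and bars the SD over 2 samples, with no bar where 1 sample gave a value. Core subunits (black labels) lie mostly near 0, base (green) and lid (purple) below, and the assembly factors (gold) lowest, with Psmb2 and Psma1 far lower with LysN than with the other enzymes.

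In mock cells the proteasome was replaced slowly. The median H share of the structural subunits went from 9.7% and 9.5% at 0 h to 14.6% and 13.0% at 12 h and 19.2% and 18.4% at 24 h, while that of all proteins reached 29.5% and 29.3% at 24 h. From 0.5 to 12 h the M share was called as falling in 9 of 35 members tested and in 35.4% of all proteins (limma, adjusted p under 0.05). The median slope of the members corresponds to a half-time of 207 h against 120 h over all proteins, an extrapolation far past the 12 h observed that ignores cell growth. It was poorly fixed, at 423 h without replicate 1 and 153 h without replicate 2. With the authors' normalised ratios it was 20.7 h and no member was called. The share of all proteins called there is not given. The median slope per h was then log2 -0.0483 over members and -0.0673 over all proteins. In the main fit these were -0.00483 and -0.0083, and with summed intensities -0.00853 and -0.0145. From 0.5 to 24 h they were -0.00667 and -0.0103, and with the 0 h level subtracted -0.004 and -0.00658.

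The 9 members called were 4 alpha subunits, 3 base and 2 lid subunits. Psmd4, the ubiquitin receptor of the base, had the steepest fall, with 15.6% of its M share lost per 12 h and a half-time of 49.2 h (42.5 to 58.5 h at 1 SE; adjusted p = 7.2e-05). Its mock H share stood at 18.9% and 20.8% by 6 h, above the base median of 10.5% and 9.92%. The others lost 4.78% to 6.57% per 12 h: Psma5 and Psmd11 had half-times of 122 and 127 h, Psmc2 and Psmd6 of 134 h each, Psma2 of 148 h, Psma1 of 151 h, Psmc3, an ATPase, of 163 h and Psma7 of 170 h. Psmd8, a lid subunit read from a median of 6 pairs, had a half-time of 60.9 h that did not pass (adjusted p = 0.0892). At the other end, Psmb4 of the core (slope 0.04 ± 0.28 log2 units per 100 h), Psmd1 of the base (0.63 ± 0.49), Psmd7 of the lid (-0.12 ± 0.59) and Psmg1, a core assembly chaperone (1.23 ± 0.75), showed no fall that passed. Psmf1 had the shortest half-time of the assembly factors, 87.2 h, with a slope of -1.15 ± 2.06 that did not pass.

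Core, base and lid did not separate in mock cells. The half-time of the median slope was 170 h for the core, 384 h for the base and 178 h for the lid, each with members on both sides of the others' median. The core median slope was 0.17 log2 units per 100 h below that of base and lid together. This difference was 0.04 below without replicate 1 and 0.03 above without replicate 2, so it did not hold beyond the spread between replicates. At 24 h the class medians of the H share in mock cells were 19.0% and 18.6% in the core, 19.4% and 19.0% in the base and 20.4% and 18.1% in the lid.

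**Figure D2:**
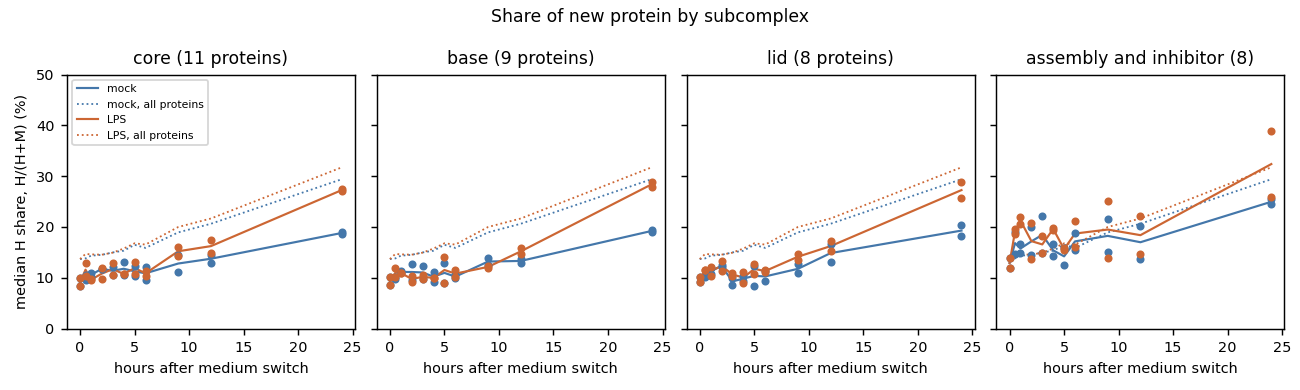
Median H share, H/(H+M) in percent (vertical axis), against hours after the switch (horizontal axis), for core, base, lid and assembly factors; points are runs, lines the means of 2 runs, and dotted lines the median over all proteins. The 3 structural classes follow nearly the same course, below all proteins, and both LPS runs lie above both mock runs by 12 h in the core and base and at 24 h in all 3.

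No member was called after LPS in the first hours. Over 1, 2 and 3 h no member of 35 passed for new protein (H/L) in either direction, against 0.356% of all proteins higher and 0.119% lower (limma), and 3 members had an unadjusted p under 0.05. For pre-existing protein (M/L) none of 36 passed, against 0.332% of all proteins lower, and 0 had an unadjusted p under 0.05.

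Over 6, 9 and 12 h Psma5 and Psmd11 rose in new protein, and no member fell. That is 2 of 36, where 10.6% of 3316 proteins tested were called higher and 1.75% lower. The median change of the members was 0.15 on the log2 scale and that of all proteins 0.03. Without the LPS 12 h run of replicate 2 these medians were 0.15 and 0.10. Without replicate 1 they were 0.22 and 0.03, and without replicate 2 they were 0.10 and 0.07. For H/M with all runs they were 0.09 and 0.08. In new protein 29 of 36 members were above 0, and the share of all proteins above 0 is not given here. No member had all 6 LPS values above all 6 mock values (5.37% of all proteins did). H/M gave the same 2 (11.4% of all proteins higher, 1.03% lower), Psma5 alone rose in total protein (10.2% higher, 9.59% lower), and no member changed in pre-existing protein (13.6% of all lower, 3.5% higher).

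Psma5 is an alpha subunit of the core. Its scaled H/L (the ratio over the run's factor) was 0.0954 and 0.0853 in mock cells at 6 h against 0.104 and 0.129 after LPS. At 9 h it was 0.111 and 0.142 against 0.192 and 0.178, and at 12 h 0.143 and 0.120 against 0.278 and 0.305. LPS was higher in 6 of 6 same-numbered pairs, with no overlap within any of these times, and the change over the 3 times was log2 0.69 ± 0.17 (SE; adjusted p = 0.00475). Psmd11 is a scaffold subunit of the lid. Its scaled H/L was 0.0694 and 0.0808 against 0.0882 and 0.0914 at 6 h, 0.0858 and 0.0989 against 0.138 and 0.131 at 9 h, and 0.109 and 0.133 against 0.188 and 0.191 at 12 h. The groups did not overlap at any of these times, and the change was log2 0.49 ± 0.13 (adjusted p = 0.0104). Neither rise passed without a run factor. With the authors' normalised ratios Psma5 was at 0.23 and did not pass, Psmd11 turned to -0.0803 in new protein and -0.11 in H/M, and 1 member was called lower in new protein. Those ratios put the median of all proteins at -0.48.

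From 0.5 to 12 h the replacement slope was called different between LPS and mock in Psma5 and Psmd11, 2 of 35 members (12.1% of all proteins steeper and 1.74% flatter under LPS). The count depended on the window and the background: it was 19 from 0.5 to 24 h and 4 with the 0 h level subtracted. The share of all proteins called in these fits is not given here. From 0.5 to 24 h the median slope difference per h was log2 -0.00658 over members and -0.00194 over all proteins. With the 0 h level subtracted these medians were -0.00177 and -0.00143. With replicate 1 or replicate 2 left out no member passed for new protein, H/M, total protein or slope, while the calls over all proteins fell from 408 to 156 and 128 for new protein. Without the LPS 12 h run of replicate 2 both rises in new protein passed, but Psma5 no longer passed in total protein (log2 0.11) nor Psmd11 in slope.

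At 24 h H/M rose in 6 of the 28 structural subunits and fell in none. Over all proteins tested 7.88% were called higher and 0.549% lower. Of the 28 structural subunits 13 had an unadjusted p under 0.05. The estimated change was above 0 in 28 of 28, from log2 0.38 for Psmd6 to 1.48 for Psma5. The median was 0.69, against 0.18 over all 3095 proteins tested. The share of all proteins above 0 is not given here. All 28 were read in the same 2 LPS and 2 mock runs, so they are not separate observations. Psmd8 was higher in 1 pair and lower in the other. In 26 of the 28 both LPS runs lay above both mock runs, which held for 44.7% of all proteins, with the reverse in 17.8% of all and in none of the members. The class median of the H share was 27.4% and 27.1% after LPS against 19.0% and 18.6% in the core. In the base it was 28.9% and 27.9% against 19.4% and 19.0%, and in the lid 28.9% and 25.6% against 20.4% and 18.1%. The median over all proteins was 32.8% and 30.7% against 29.5% and 29.3%.

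**Figure D3:**
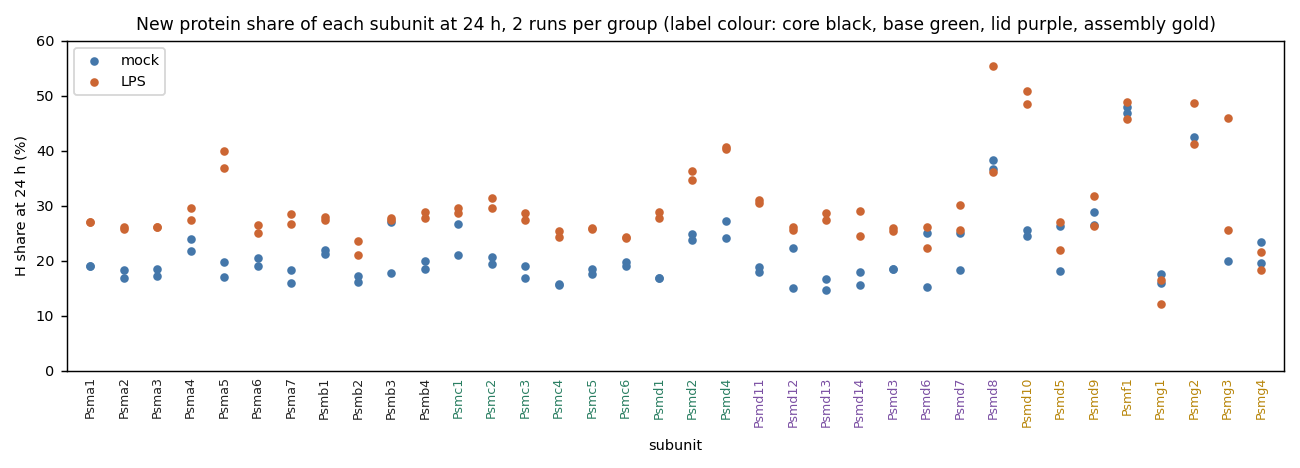
H share in percent at 24 h (vertical axis) of each subunit (horizontal axis), with 1 point per run, 2 mock and 2 LPS; label colours give the class. In 26 of 28 structural subunits both LPS runs lie above both mock runs, with Psma5 at 40.0% and 36.9%, while the 2 treatments mix among the assembly factors other than Psmd10.

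The test called fewer of them. New protein rose in 6 of 34 members tested at 24 h, against 7.88% of all proteins called higher and 2.33% lower, and fell in none. Another 7 members had an unadjusted p under 0.05 only. The 6 were Psma5, Psma7, Psma1, Psmb4, Psmc3 and Psmd11, from 0.74 to 1.77 on the log2 scale. In 27 of 34 members both LPS runs lay above both mock runs (36.8% of all proteins), and in 0 below (26.2%). The median change was 0.72 in the core, 0.74 in the base, 0.53 in the lid and 0.15 among assembly factors. The members called had a median of 55 H/M pairs per run and those not called 26, with standard errors of 0.20 to 0.29 against 0.26 to 0.97. H/M was called higher in 7 of 34 (7.88% of all proteins, 0.549% lower): Psma5, Psma7, Psma1, Psmc3, Psmd11, Psmd13 and Psmd10. The 7 became 3 with each run centred on its median H/M and 0 with the authors' normalised ratios, where the share of all proteins called is not given.

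Psma5 changed most among the core subunits. Its scaled H/L at 24 h was 0.161 and 0.154 in mock cells and 0.561 and 0.511 after LPS, a change of log2 1.77 ± 0.29 (adjusted p = 9.44e-05). The H share went from 19.8% and 17.0% to 40.0% and 36.9%, so that its mock values lay among those of the other core subunits and its LPS values above all of them. The other core subunits reached at most 27.0% in a mock run (Psmb3) and 29.6% in an LPS run (Psma4).

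The other called core subunits moved together by less. Psma7, which helps to form the outer ring, had a scaled H/L of 0.151 and 0.174 in mock cells and 0.298 and 0.311 after LPS (log2 0.91 ± 0.20, adjusted p = 0.00275). Psma1, also of the alpha ring, had 0.208 and 0.190 against 0.344 and 0.347 (0.80 ± 0.21, adjusted p = 0.015). Psmb4, a beta subunit without a proteolytic site, had 0.174 and 0.216 against 0.323 and 0.372 (0.84 ± 0.25, adjusted p = 0.0334). None of these groups overlapped. The 7 core subunits not called were all above 0, from 0.41 for Psma4 to 0.76 for Psma2.

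In the regulatory particle the called subunits were an ATPase and 2 lid scaffolds. Psmc3, the ATPase, had a scaled H/L of 0.204 and 0.184 in mock cells and 0.331 and 0.318 after LPS (log2 0.74 ± 0.23, adjusted p = 0.0383). Psmd11 had 0.178 and 0.195 against 0.355 and 0.378 (0.98 ± 0.22, adjusted p = 0.00373). Psmd13, a lid subunit, had an H share of 16.7% and 14.7% against 28.7% and 27.5%. It passed in H/M (1.07 ± 0.32, adjusted p = 0.0381) but not in new protein (0.98 ± 0.34, adjusted p = 0.0722). Psmd4 had 27.2% and 24.1% against 40.7% and 40.3%, and its changes of 1.11 ± 0.42 in new protein and 0.98 ± 0.50 in H/M did not pass. Psmd14, the lid deubiquitinase, was at 15.6% and 17.9% against 29.1% and 24.5% and did not pass either (adjusted p = 0.117 for new protein).

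**Figure D4:**
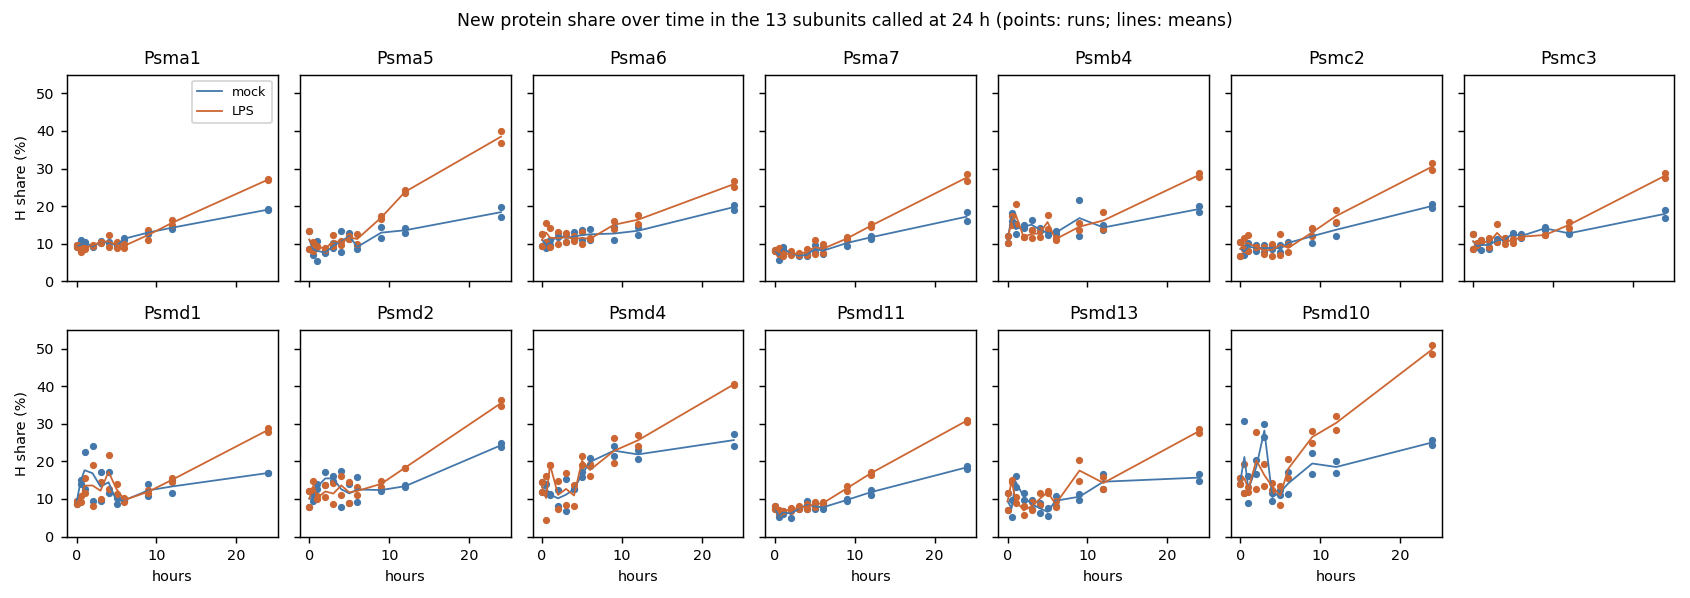
H share in percent (vertical axis) against hours (horizontal axis) for the 13 subunits called at 24 h in new, pre-existing or total protein or in H/M; points are runs and lines the means of 2 runs, mock in blue and LPS in orange. At 24 h both LPS runs lie above both mock runs in each panel, and for Psma5, Psmd11, Psmd2 and Psmd10 they already do so at both 9 and 12 h.

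Assembly factors were mixed. Of the 6 tested at 24 h, 3 had H/M above 0 and 3 below, with a median of 0.04, and both LPS runs lay above both mock runs in 1. In new protein 4 of 6 were above 0, none was called, and Psmd10, Psmf1 and Psmg4 had both LPS runs above both mock runs. The 1 in H/M was Psmd10 (gankyrin), a base chaperone. Its H share was 24.5% and 25.6% in mock cells and 50.9% and 48.6% after LPS, and H/M rose by 1.57 ± 0.47 (adjusted p = 0.0333) from a median of 4 pairs per run. Psmd9, another base chaperone, was at 26.5% and 28.9% against 31.7% and 26.2%, and Psmd5, also a base chaperone, at 26.4% and 18.2% against 27.1% and 22.0%. Psmf1, an inhibitor of the core in vitro, already had H shares of 48.0% and 46.8% in mock cells and 48.8% and 45.8% after LPS. Psmg1 was lower after LPS in both pairs, at 17.5% and 16.0% in mock cells and 16.5% and 12.1% after LPS. So was Psmg4, also a core chaperone, at 19.6% and 23.4% in mock cells and 18.3% and 21.6% after LPS. Psmg2 and Psmg3 lacked a mock value at 24 h and were not tested. Only 4 to 6 pairs stood behind the values of Psmd10, Psmf1, Psmg1 and Psmg4, and a test of assembly factors against structural subunits was not made.

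Total protein rose at 24 h in 10 of 34 members and fell in none, where 17.7% of all proteins were higher and 20.1% lower. The median change was log2 0.17 over members and 0.01 over all proteins. The 10 were Psma1, Psma5 and Psma6 of the core, Psmc2, Psmd1, Psmd2 and Psmd4 of the base, Psmd11 and Psmd13 of the lid, and Psmd10. For the alternatives that follow, the share of all proteins called is not given. The count of 10 became 0 without a run factor, 1 with the authors' normalised ratios, and 16 with the replicate number as a block. Without replicate 1 it was 0 and without replicate 2 it was 6, in fits where each 24 h group has 1 sample and is assumed to vary like the other groups. The median scaled total of the structural subunits was 0.955 and 0.957 in mock cells and 1.06 in both LPS runs. By class the median change was 0.18 in the core, 0.16 in the base and 0.07 in the lid, and both LPS runs lay above both mock runs in 10 of 11, 7 of 9 and 2 of 8 (33.1% of all proteins).

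Psmd4 gained most, from a scaled total of 0.738 and 0.862 to 1.22 and 1.19 (log2 0.60 ± 0.12, adjusted p = 0.000315), followed by Psma5, from 0.952 and 1.02 to 1.38 in both runs (0.49 ± 0.07, adjusted p = 8.41e-06). The others called had changes of 0.16 for Psmc2 to 0.38 for Psmd10. In Psmd2, a large scaffold subunit of the base, the total was 0.851 and 0.939 in mock cells and 1.05 and 1.02 after LPS (0.21 ± 0.07, adjusted p = 0.0229).

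Pre-existing protein was called in 1 member. The median change of M/L at 24 h was -0.01 over members, while that of all proteins was -0.07 with 27.6% of them called lower and 10.3% higher. Psmd4 was the 1 member of 34 called, higher after LPS (0.510 and 0.633 in mock cells, 0.716 and 0.714 after LPS, log2 0.33 ± 0.11, adjusted p = 0.024). With the replicate number as a block 1 member was higher and 2 were lower. No member was called without a run factor and 8 were called higher with the normalised ratios. The share of all proteins called in these alternatives is not given here. With the normalised ratios the median change was 0.045 over members and 0.026 over all proteins. Without replicate 1, with 1 sample a group, the change of Psmd4 was 0.17. Scaled M/L had a structural median of 0.752 and 0.765 in mock cells and 0.747 and 0.757 after LPS.

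**Figure D5:**
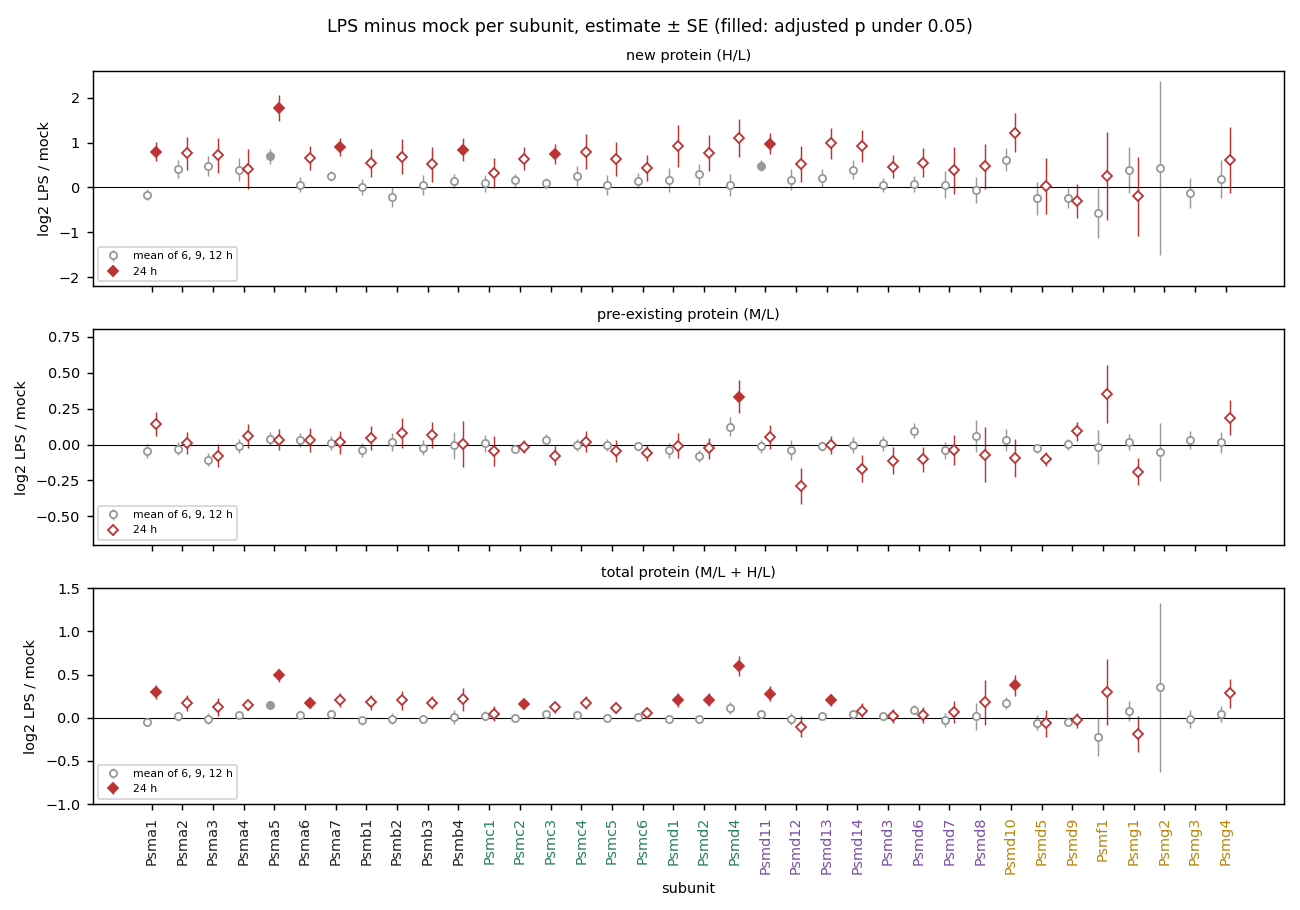
Change after LPS as log2 of LPS over mock (vertical axis) for each subunit (horizontal axis) in new, pre-existing and total protein; circles are the mean over 6, 9 and 12 h, diamonds 24 h, bars the SE, and filled symbols have an adjusted p under 0.05. At 24 h new protein lies above 0 in all 28 structural subunits and pre-existing protein lies near 0 in most, with Psmd4 called.

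Whether the response at 24 h was larger than that over 6 to 12 h was tested directly. For new protein the difference had a median of 0.50 over 34 members and 0.01 over all proteins, and for H/M of 0.53 against 0.08. It was above 0 in 28 of 28 structural subunits in both, a count whose share over all proteins is not given here. Yet no member passed (0.368% of all proteins were called larger and 0.402% smaller for new protein, 0.301% and 0.201% for H/M), and 6 and 7 members had an unadjusted p under 0.05. For total protein Psmd4, Psma1 and Psma5 passed (6.49% of all proteins larger, 10.5% smaller), and with the replicate block 5 members did, but none did without a run factor or with the normalised ratios.

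The scaling moved the level against which these changes are read. Without any run factor the median change of all proteins in new protein at 24 h was 0.30, and with the authors' normalised ratios it was -0.15. The median of the members stood 0.59 above that of all proteins with the run factor, a gap that a factor shared by all proteins of a run cannot alter. It was 0.53 with the normalised ratios and 0.46 with summed intensities. With the 0 h level subtracted it was 1.05, but values at or below that level drop out there. That fit tested 2461 proteins, against 3095 in the main fit, and called no member. For H/M the gap was 0.46, and 0.26 with summed intensities. For total protein it was 0.17, and 0.28 with channels centred separately and 0.26 with the normalised ratios. The number called in new protein fell from 6 to 1 or 2 of 34 without the factor, with channels centred separately and with the normalised ratios. How many of all proteins these fits called is not given here.

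Promoter sequence is shown for Psma5 and Psmd11, the members called over 6 to 12 h, and for Psmd10, the assembly factor called in H/M at 24 h. The sequences are from RefSeq on GRCm38.p6, from 250 bases before to 50 after the annotated start, 5′ to 3′ on the gene's strand. Capitals mark matches on either strand to CCAAT, the box bound by NF-Y, or to TGANNNNGC, the core of the antioxidant response element, where N is any base; the motifs do not overlap in these 3 windows. Psma5 lies at chr3:108256676-108256975 (plus strand), Psmd11 at chr11:80428365-80428664 (plus strand) and Psmd10 at chrX:140956662-140956961 (minus strand).
Psma5: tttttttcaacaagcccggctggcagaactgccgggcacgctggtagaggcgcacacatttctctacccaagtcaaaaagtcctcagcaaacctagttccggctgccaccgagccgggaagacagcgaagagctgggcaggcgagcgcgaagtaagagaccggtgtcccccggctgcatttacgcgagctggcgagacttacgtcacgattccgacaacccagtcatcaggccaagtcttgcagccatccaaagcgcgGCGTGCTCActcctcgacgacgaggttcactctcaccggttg
Psmd11: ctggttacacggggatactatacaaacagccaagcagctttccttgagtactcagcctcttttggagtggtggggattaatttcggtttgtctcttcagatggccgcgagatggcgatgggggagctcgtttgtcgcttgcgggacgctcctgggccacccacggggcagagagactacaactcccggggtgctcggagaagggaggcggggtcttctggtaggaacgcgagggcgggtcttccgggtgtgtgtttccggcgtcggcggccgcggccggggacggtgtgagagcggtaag
Psmd10: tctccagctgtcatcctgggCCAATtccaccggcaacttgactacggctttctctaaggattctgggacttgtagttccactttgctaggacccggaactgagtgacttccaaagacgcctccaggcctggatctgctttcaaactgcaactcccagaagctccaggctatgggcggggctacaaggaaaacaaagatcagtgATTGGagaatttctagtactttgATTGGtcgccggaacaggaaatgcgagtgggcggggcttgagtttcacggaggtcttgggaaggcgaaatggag
The Psma5 window held 1 match to TGANNNNGC on the reverse strand and 0 to CCAAT, the Psmd11 window held 0 of either, and the Psmd10 window 1 CCAAT on the forward and 2 on the reverse strand. The RefSeq table had a promoter for 30 of the 36 members, and 11 held CCAAT (36.7%, against 41.1% of 27025 genes) and 16 held TGANNNNGC (53.3%, against 45.0%). Both shares were near those of all promoters. A match is a description of the letters only.

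Some other genes of the pathway also rose. Of 33 symbols listed, 30 had a protein group and 24 were tested over 6 to 12 h. Of these 6 rose in new protein and none fell, where 10.6% of all proteins were called higher and 1.75% lower. At 24 h 6 of 22 rose and none fell (7.88% of all proteins higher, 2.33% lower). The same 6 passed in both: Psme1 and Psme2, which form an activator cap induced by interferon, the immunoproteasome subunit Psmb10, the ubiquitin-activating enzyme Uba1, the proteasome-bound thioredoxin-like protein Txnl1 and the zinc finger protein Zfand5. Psme2 changed by 2.50 ± 0.18 at 24 h, Psme1 by 2.10 ± 0.31, Psmb10 by 1.63 ± 0.26, Zfand5 by 1.24 ± 0.28, Uba1 by 1.01 ± 0.18 and Txnl1 by 0.88 ± 0.23 on the log2 scale (adjusted p from 7.59e-10 to 0.0134). The median change over all 22 was 0.48, against 0.70 over the structural subunits. The catalytic subunits Psmb5, Psmb6 and Psmb7 did not pass in new protein at 24 h (-0.38 ± 1.22, -0.32 ± 0.41 and 0.03 ± 0.50). The immunoproteasome subunits Psmb8 and Psmb9 were not among those called in new protein at either stage. Their estimates are not given here, nor whether Psmb8 was tested. Being absent from the calls does not show that they were unchanged. Psmb9 rose in total protein at 24 h, where 17.7% of all proteins were called higher.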

How the data were processed

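Pulsed SILAC proteomes were read as protein group tables whose column names are those of MaxQuant per the file headers; its version was not stated. The deposited ratio columns (M/L, H/L, H/M) are the authors' values without normalisation per the file headers, and the deposited normalised ratios were an alternative. The deposited count columns give peptide pairs behind each ratio, the deposited intensity columns summed signal, and the deposited iBAQ values intensity per theoretical peptide. Genome build mm9 is named in the submitters' processing notes. Reverse, contaminant and site-only groups were left out (5899 of 6266 kept).

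Each H/L and M/L was divided by a factor for its run: the summed ratios M/L and H/L were taken for the 2628 proteins quantified in all runs, and their median was used. Log2 values were fitted by group means in limma 3.58.1 (R 4.3.3) with Benjamini-Hochberg adjustment over all proteins tested, and called under 0.05. The late effect is the mean over 6, 9 and 12 h, with at least 4 of 6 values in each arm, and 24 h needed all 2 values in each. Replacement was the slope of log2(M share) from 0.5 to 12 h, with at least 12 of 18 values. Depth was 68083 to 109064 M/L pairs per run (median 89439); the number of pairs limits precision. The scripts were tested on simulated data. Python 3.11.15, pandas 2.3.3, numpy 2.4.6 and matplotlib 3.10.9 were used otherwise.

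Same-numbered mock and LPS runs deviated together at all 10 times (correlations 0.247 to 0.472 for H/M, 0.250 to 0.461 for new and 0.312 to 0.550 for pre-existing protein), so the numbers were taken to pair runs. This rests on the data, not on the labels. The pairing was used where pairs are counted. The main fits left it out, so their p-values are unpaired, and the replicate block was an alternative. Named members were those called in a comparison and, in each class, those with the shortest and longest half-time and the highest and lowest level. Members and lists were chosen with earlier results of these data known. Alternatives were other scalings, ratio columns, summed intensities, minimum values, the replicate block and leaving out replicates. Leaving out the LPS 12 h run of replicate 2, subtracting the 0 h level and the comparison of 24 h with 6 to 12 h were added after seeing the data.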

Additional observations from a re-analysis of the deposited data

Results flagged for a closer look

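The effect of LPS on total protein differed between 24 h and the mean of 6, 9 and 12 h in 3 members, by a direct test of the difference (limma, adjusted p under 0.05). It was larger at 24 h by log2 0.49 in Psmd4, 0.35 in Psma1 and 0.35 in Psma5. The same test called 6.49% of all proteins larger and 10.5% smaller. No member passed without a run factor or with the normalised ratios.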

How the results depend on the processing

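Counts are members called, and the share of all proteins called in the same alternative fit is given only where stated. In new protein over 6 to 12 h the count of 2 became 0 without a run factor or with summed intensities, 1 with channels centred separately or with the 0 h level subtracted, 1 called lower with the normalised ratios, and 0 to 0 without 1 replicate. For H/M the count of 2 became 0 with runs centred, with summed intensities or with the 0 h level subtracted, 2 called lower with the normalised ratios, and 0 to 0 without 1 replicate. Total protein went from 1 to 0 without a run factor, with summed intensities or without the LPS 12 h run of replicate 2, 4 called lower with the normalised ratios, and 0 to 0 without 1 replicate. Pre-existing protein went from 0 to 5 with the normalised ratios. At 24 h, new protein went from 6 to 1 without a factor, with normalised ratios or with summed intensities, 2 with channels centred and 0 with the 0 h level subtracted; H/M went from 7 to 3 with runs centred and 0 with normalised ratios, summed intensities or the 0 h level subtracted. Without 1 replicate both gave 0 to 0, but there no protein at all was called, so these fits say nothing about stability. Total protein went from 10 to 0 without a factor, 6 with channels centred, 1 with normalised ratios, 5 with summed intensities, 16 with the replicate block and 0 to 6 without 1 replicate. Pre-existing protein went from 1 to 0 without a factor, 3 with channels centred, 8 with normalised ratios, 3 with the replicate block and 1 to 2 without 1 replicate. For total protein at 24 h against 6 to 12 h, 3 became 0 without a factor or with normalised ratios, 1 with channels centred and 5 with the replicate block. The slope difference went from 2 to 4 with the 0 h level subtracted, 19 over 0.5 to 24 h, 0 with normalised ratios, 1 with summed intensities or without the LPS 12 h run of replicate 2, and 0 to 0 without 1 replicate. The mock half-time was 153 to 423 h without 1 replicate. The core minus base and lid slope of -0.17 per 100 h was -0.12 over 0.5 to 24 h, 0.10 with summed intensities and -0.0382 to 0.0274 without 1 replicate. With the normalised ratios Psmd11 turned to -0.11 in H/M and -0.0803 in new protein over 6 to 12 h, and its slope difference to 0.0101 per h. These ratios moved the median of all proteins in new protein over 6 to 12 h to -0.48. The replicate block moved no other count of calls by over 1.5 times. The cause of these changes was not tested. Few pairs stood behind some members, with a median under 7 per run in Psmd8, Psmd10, Psmf1 and the 4 Psmg proteins.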
